A study of Mus musculus with 12 samples.

Results

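The genes described here form the mitogen-activated protein (MAP) kinase cascade together with the proteins that hold it back. They were taken by symbol. A gene was a member when its name in the 6 mRNA peak lists began with Mapk, Map2k, Map3k, Map4k, Dusp, Spry or Spred, and 60 of the 10030 genes named in those lists met this rule. They comprised 29 kinases, 21 brakes (dual-specificity phosphatases, Sprouty and Spred proteins) and 10 others, of which 7 were scaffold or binding proteins and 3 (Spryd3, Spryd4 and Spryd7) shared only the letters of a prefix with Sprouty. The cells were C17.2, an immortalised line of mouse neural stem cells (NSCs) and therefore 1 cultured line rather than brain tissue. The control groups were cultures kept without hypoxia. The hypoxia/reoxygenation (H/R) groups were cultures held for 12 h at 5% oxygen and then returned to standard oxygen for 48 h, which serves as a culture model of ischemia followed by reperfusion. Both groups were of the wild-type genotype in the labels. The lists come from methylated RNA immunoprecipitation with sequencing (MeRIP-seq). It finds stretches of RNA, called peaks, that an antibody against N6-methyladenosine (m6A) enriches over the unselected input RNA.

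In the MAP kinase cascade, a MAP kinase kinase kinase (MAP3K) phosphorylates a MAP kinase kinase (MAP2K), which phosphorylates a MAP kinase of the ERK, JNK or p38 class, and MAP4Ks act above the MAP3Ks. ERK signalling carries growth factor signals for division in neural stem cells, and JNK and p38 respond to stresses that include low oxygen. The MAP kinase phosphatases among the Dusp proteins remove the activating phosphates from MAP kinases, while atypical Dusp proteins include some with other substrates. Sprouty and Spred proteins act further up, between receptor and Raf. Many brakes are themselves induced by the cascade, which closes a feedback loop. The m6A mark is set by the METTL3 and METTL14 methyltransferase complex within the motif DRACH, in which D stands for any base but C, R for a purine, and H for any base but G.

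The labels gave 12 samples in 4 groups of 3, an input and an immunoprecipitate for each condition, and a list of mRNA peaks was deposited for each of 3 control libraries (A, B and C) and 3 H/R libraries (A, B and C). Nothing stated that the replicates were separate cultures, so p-values measure only the spread between these libraries, which may be technical. The control lists held 12180, 8932 and 7863 peaks and the H/R lists 18706, 13954 and 22038, and the 2 ranges did not overlap. Values by library are given in the order A, B, C throughout. The lists give no library totals, so no interval that needs a read depth is given. The false discovery rate that accompanies each peak was 24.98% or more for all 500 member peaks. Of 8 neural stem cell markers, 5 had a peak in some list, and Nes and Sox2 had a peak in all 6. Pax6, Prom1 and Vim had none, and Hes1 had none in control and 2, 1 and 2 in H/R. Of the 24 neuron, astrocyte, oligodendrocyte, microglia and endothelium markers, 4 had a peak in some list. A peak requires both a transcript and its enrichment, so these lists do not measure expression, and fewer transcripts and less m6A per transcript cannot be told apart.

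The sites below are sequence matches within regions that the antibody enriched, in some of the strongest or most changed members. Mapk9 and Map3k8, whose peak numbers also did not overlap between the groups, have no site here. Each is the DRACH match closest to the centre of the gene's most widely called region, ties going to the lower p of the peak caller, in a window of 21 bases read from the RefSeq copy of the mm10 genome on the transcript strand, 5′ to 3′, with the motif in capitals.
Map2k2: gggtcatgGAACTcaatgaga
Map4k4: ctctgcggAGACAgcagcttc
Map3k4: caggagacAAACCgtgtgggc
Map3k14: tatatgctGGACTctgccgtc
Spry1: ggtgggttGGACCtccgcgga
Spry2: tggaagttGGACTgaagcaga
Dusp16: tgtctagtAGACCattttcta
The Map2k2 site lies on the plus strand at chr10:81124137-81124157, in the 3′UTR. The Map4k4 site is on the plus strand at chr1:39990172-39990192 and the Map3k4 site on the minus strand at chr17:12271556-12271576, both in coding sequence. The Map3k14 site, on the minus strand at chr11:103239238-103239258, is also coding. Among the brakes, the Spry1 site is on the plus strand at chr3:37643560-37643580, within 100 bases of the stop codon. The Spry2 site is on the minus strand at chr14:105896691-105896711, in the 5′UTR, and the Dusp16 site is on the minus strand at chr6:134717239-134717259, in the 3′UTR. A match is a description of the letters and not a mapped m6A base, since the regions held between 3 DRACH matches (Spry2) and 77 (Dusp16). DRACH was also common in the lists at large, and 94.0% to 96.8% of all classed mRNA peaks held it.

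Most members had peaks in control as well as in H/R libraries. The control libraries called 44, 38 and 28 members, that is, gave them at least 1 peak, and the H/R libraries called 47, 40 and 54. The ranges overlapped, since H/R B called fewer members than control A. The mean was 36.7 ± 8.08 in control and 47.0 ± 7.0 in H/R (SD, n = 3), a difference of 10.3 members (two-sided exact permutation test, p = 0.2). With 3 libraries against 3, the smallest p that this test can give is 0.1. No member was H/R-only, meaning called by the 3 H/R lists and by none of the control lists, beside 4.96% of all genes. None was control-only, the reverse, beside 0.0698% of all genes. Of the members, 23 were called in all 6 lists, which was 38.3% of them beside 39.5% of all genes. They were 10 kinases (Map2k2, Map2k7, Map3k1, Map3k4, Map3k10, Map3k11, Map3k13, Map3k14, Map4k4 and Mapk7), 10 brakes (Dusp3, Dusp4, Dusp7, Dusp8, Dusp10, Dusp14, Dusp16, Spred2, Spry1 and Spry2) and Mapk1ip1, Mapk1ip1l and Mapkap1. Another 14 (23.3%) were called in no control list, beside 31.2% of all genes, and 9 of these 14 were called in H/R C only, the longest list (15% of members, 12.7% of all genes). Those 9 were Mapk3, Mapk12, Mapkapk2, Map2k3, Map3k5, Dusp12, Dusp22, Mapk8ip2 and Spryd7. When each list was limited to its 7863 peaks of highest p score, the length of the shortest list, members called became 33, 34 and 28 in control and 31, 30 and 32 in H/R, a difference of -0.67.

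The members' peaks rose in number with the lists as a whole. The control lists held 80, 58 and 43 member peaks and the H/R lists 109, 81 and 129, so each H/R library lay above each control library. The means were 60.3 ± 18.6 and 106 ± 24.1 (SD, n = 3; exact permutation test, p = 0.1). Per 1000 mRNA peaks of the same list the members had 6.57, 6.49 and 5.47 peaks in control and 5.83, 5.80 and 5.85 in H/R, a difference of -0.35 (exact permutation test, p = 0.4) that became 0.25 with lists of equal length. The 23 members found in every list had, per gene, 1.94 ± 0.36 peaks in control and 3.06 ± 0.52 in H/R (SD, n = 3; exact permutation test, p = 0.1). The members' difference of 1.12 was 0.083 with lists of equal length and 0.21 with a fold of at least 10. The 3966 such genes of the whole lists gave 2.0 ± 0.27 and 3.04 ± 0.41. The bases that member peaks covered were 75873, 62050 and 43192 in control and 85662, 76133 and 86594 in H/R, which is 1.37 times as many on average, beside 1.76 times as many peaks. H/R peaks were shorter, with a median length of 774 ± 78.2 bases in control and 485 ± 142 in H/R (SD, n = 3; exact permutation test, p = 0.1), and that difference turned to 18.8 bases in the other direction with lists of equal length. Of the control peaks of members, 97.8% overlapped an H/R peak of the same gene, and 69.0% of the H/R peaks overlapped a control peak. Covered bases and overlaps have no value over all genes beside them, and the H/R lists were the longer ones. They are therefore not a result about the members as such.

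**Figure D1:**
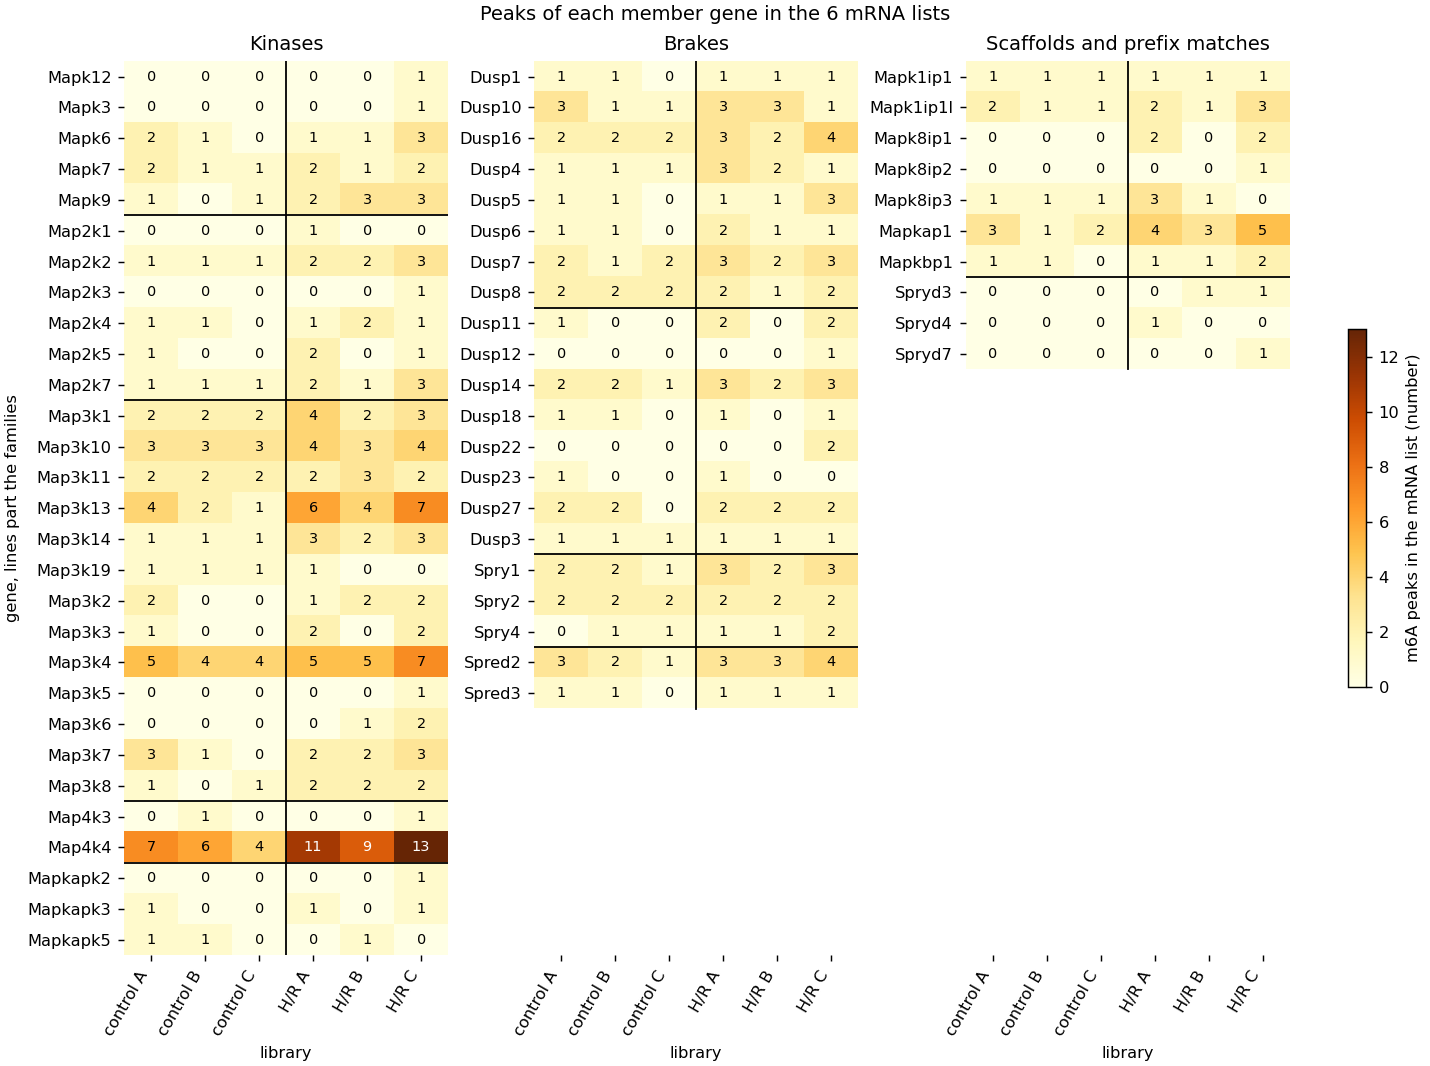
Number of m6A peaks of each of the 60 member genes (rows, with black lines between families) in each of the 6 mRNA lists (columns), coloured from 0 to 13 peaks. Map4k4 had the highest number in each library, tied with Map3k4 at 4 peaks in control C, and several genes, such as Mapk3 and Map3k5, had a peak in H/R C only.

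Among the kinases, the upper tiers (MAP3Ks and MAP4Ks) carried most of the peaks, and their transcripts were the longer ones. The 13 MAP3Ks held 25, 16 and 15 control peaks against 32, 26 and 38 in H/R, and 6 of these genes were present in every list. The annotation lists 18 genes of this name, and 1 of those without a peak, Map3k20, appeared in the lists under its older symbol Zak, outside the rule. The 2 MAP4Ks with a peak, of 5 in the annotation, held 7, 7 and 4 control peaks against 11, 9 and 14 in H/R. Nearly all of these belonged to Map4k4. The longest annotated transcript had a median of 5305 bases in these MAP3Ks and 4969 in these MAP4Ks. It was 3255 in the MAP kinases with a peak and 2472.5 in the MAP2Ks with a peak. Only 5 of the 13 MAP kinases had a peak in any list, namely Mapk3, Mapk6, Mapk7, Mapk9 and Mapk12. Mapk8, which encodes JNK1, and Mapk14, which encodes p38 alpha, had no peak under their symbols in the lists used here, and no peak of another symbol touched their exons. Mapk3, which encodes ERK1, had 1 coding peak (fold 6.62) in H/R C and none in the other libraries.

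Few members had peak numbers that did not overlap between the groups. In 5 members, all kinases, every H/R library had more peaks than every control library, and no member had fewer in every H/R library. That is 8.33% of members, beside 14.8% of all genes with more and 0.12% with fewer, so the members' share lay below that of all genes. The 5 were 17.2% of the 29 kinases, and none of the 21 brakes was among them, a difference that was not tested. Among the 23 members found in every list, 3 (13%) were of this kind, beside 18.9% of such genes overall. The count rested on some libraries. Without control A it was 11, where the brake Spred2 joined with the kinases Map3k2, Map3k4, Map3k7 and Map3k13 and with Mapkap1. Without H/R B it was 17, where the brakes Dusp7, Dusp11, Dusp14, Dusp16 and Spry1 joined. The kinases Map2k7, Map3k1, Map3k3, Map3k10 and Map3k13 joined there too, as did Mapk8ip1 and Mapkap1. It stayed at 5 (8.33%) without control B or control C, beside 16.29% and 15.77% of all genes. It was 7 of 58 members (12.07%) without H/R A, beside 18.01%, and 6 of 51 (11.76%) without H/R C, beside 19.00%. The count of 11 was 18.3% of members beside 26.0% of all genes, and that of 17 was 28.3% beside 32.1%. With lists of equal length no member had more peaks in every H/R library, beside 2.51% of all genes. At that length Map3k19, a MAP3K, had fewer (2.22% of all genes) and was control-only (1.32% of all genes). It was chosen after its values were seen.

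Map4k4, a kinase that acts upstream of JNK, had the most peaks of any member. Its 7, 6 and 4 control peaks stood against 11, 9 and 13 in H/R, so the groups did not overlap. The mean rose from 5.67 ± 1.53 to 11 ± 2.0 (SD, n = 3), a difference of 5.33 peaks that was 1.33 with lists of equal length. Its regions were coding exons except for 1 in the 5′UTR and 1 in the 3′UTR. The exon at chr1:39990089-39990299 had fold enrichments of 267, 240 and 151 in control and 86.0, 206 and 88.7 in H/R, and the exon at chr1:39997021-39997182 had 257, 209 and 180 in control and 84.4, 142 and 134 in H/R. Both exons were called by every library, and the groups overlapped in the former and not in the latter. The H/R-only exons had lower folds: chr1:40004807-40004913 had 8.10, 10.9 and 10.5, and chr1:40014527-40014697 had 4.42, 5.65 and 4.11. Of its 33 H/R peaks, 20 overlapped a control peak.

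Map2k2, which encodes the ERK-activating kinase MEK2, had 1 peak in every control library against 2, 2 and 3 in the H/R libraries. The peak common to all was the last exon with the 3′UTR, chr10:81123620-81124697. It had fold enrichments of 398, 275 and 313 in control and 113, 180 and 119 in H/R, with no overlap between the groups, and 398 was the highest of any member peak. Its p score (10 times the -log10 of the peak caller's p) was 3100 in all 6 lists, a value at which many peaks of different fold were tied. The additional H/R peak lay on the first exon around the start codon, chr10:81105915-81106238, with fold enrichments of 6.59, 12.8 and 12.0. Map2k1, which encodes the partner kinase MEK1, had 1 peak in all, in the 5′UTR in H/R A with a fold enrichment of 4.52.

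The other kinases without overlap differed by smaller numbers. Mapk9, which encodes JNK2, had 1, 0 and 1 peaks in control and 2, 3 and 3 in H/R. They sat on neighbouring coding exons, the exon of the control peaks at chr11:49881219-49881282 with folds of 13.1 and 12.9 in control A and C and 9.35, 13.2 and 11.8 in H/R, and the exon at chr11:49879702-49879826 in the H/R libraries alone with 4.19, 7.86 and 8.78. Map3k14, which encodes NIK, the kinase of noncanonical NF-kappa B signalling, had 1 peak in every control library against 3, 2 and 3 in H/R. The control peak was not the same throughout. Control A had the 3′ exon at chr11:103219762-103221189 (fold 9.71). Control B and C had a peak in the coding stretch chr11:103238511-103239552 (folds 33.6 and 49.7). Of the 1042 bases of that stretch, 621 were exonic in the transcript used. Each H/R library had a peak at both places. Map3k8, which encodes the ERK-pathway kinase Tpl2, had 1, 0 and 1 peaks in control and 2 in each H/R library, the additional one being a coding exon with folds of 4.89, 7.80 and 5.98. With lists of equal length the differences in mean peak number were 0.33 for Mapk9, 0.33 for Map3k8, and 0 for Map3k14 and Map2k2.

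The rest of the kinase core showed overlapping groups. Map2k7 and Map2k4, which activate JNK, had 1, 1 and 1 and 1, 1 and 0 peaks in control and 2, 1 and 3 and 1, 2 and 1 in H/R. Both had a 3′UTR peak as their most frequent one, and that of Map2k7 at chr8:4245695-4247897 had folds of 47.6, 60.8 and 42.8 in control and 37.5, 34.0 and 30.7 in H/R. Map3k1, a MAP3K of the JNK branch, had 2 peaks in every control library against 4, 2 and 3 in H/R. Map3k4, which lies above p38 and JNK, had 5, 4 and 4 in control and 5, 5 and 7 in H/R, and its coding exon at chr17:12270863-12272220 had folds of 47.3, 58.5 and 33.6 in control and 36.6, 49.4 and 49.6 in H/R, which overlapped. Map3k7, which encodes TAK1, had 3, 1 and 0 peaks in control and 2, 2 and 3 in H/R, and Map3k5, which encodes the stress sensor ASK1, had 1 peak in H/R C alone. Map3k13, a leucine-zipper kinase above JNK, had a larger difference than most that are named, with 4, 2 and 1 peaks in control and 6, 4 and 7 in H/R, but H/R B equalled control A; it was chosen after its values were seen.

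The brakes were called at least as widely as the kinases and had overlapping peak numbers. The 8 MAP kinase phosphatases with a peak, of 10 in the annotation, were called by every library except control C, which called 5 of them. They had 13, 10 and 8 peaks in control and 18, 13 and 16 in H/R. Dusp1, the early-response nuclear phosphatase, had 1, 1 and 0 peaks in control and 1 in each H/R library, all of them the 3′ exon at chr17:26505590-26506650, with folds of 34.1 and 42.2 in control A and B and 16.4, 18.7 and 18.2 in H/R. Dusp6, the cytoplasmic ERK phosphatase, had 1, 1 and 0 peaks in control and 2, 1 and 1 in H/R. The common one was the first exon with the start codon, chr10:99263231-99264091, with folds of 28.5 and 25.7 in control and 10.3, 19.2 and 17.5 in H/R. Dusp5, a nuclear ERK phosphatase, had 1, 1 and 0 and then 1, 1 and 3 peaks, and Dusp4, also nuclear, had 1 in every control library against 3, 2 and 1 in H/R. Control C, the shortest list, was thus the library that lacked Dusp1, Dusp5 and Dusp6.

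Dusp16 and Dusp10, phosphatases with preference for JNK and p38, were called in every list. Dusp16 had 2 peaks in every control library against 3, 2 and 4 in H/R. Its peaks on the last exon, chr6:134715468-134719051, had folds of 59.0, 56.4 and 44.5 in control and 28.4, 23.4 and 33.3 in H/R, and the groups did not overlap. Dusp10 had 3, 1 and 1 peaks in control and 3, 3 and 1 in H/R, all 7 of its H/R peaks overlapping control peaks. Of the atypical Dusp genes, which include phosphatases with other substrates such as the RNA phosphatase Dusp11, 8 of 14 had a peak, and they had 8, 6 and 2 peaks in control and 10, 5 and 12 in H/R. Dusp14 provided the single H/R-only region of the brakes, a 5′UTR exon at chr11:84068481-84068580 with folds of 11.9, 11.7 and 12.4. Control A and control B had a peak on other 5′UTR exons of Dusp14, with folds of 35.2 and 38.8, which no H/R list held.

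Brake peaks were longer than kinase peaks, with median lengths of 1142 ± 140 and 661 ± 73.3 bases in control and 926.5 ± 319 and 377 ± 68.3 in H/R (SD, n = 3). The 3′ peaks of Spry1 and Spry2 ran through the coding sequence into the 3′UTR, and both genes also had separate 5′UTR peaks. Spry2 had 2 peaks in each of the 6 libraries, the 5′UTR exon at chr14:105896588-105896819 with folds of 41.9, 48.5 and 47.4 in control and 18.3, 29.3 and 21.1 in H/R, and the exon that holds its coding sequence and stop codon at chr14:105891947-105893801 with 27.3, 25.8 and 20.8 in control and 10.8, 12.3 and 14.5 in H/R. The peak number was the same in both groups while the fold enrichment was lower in every H/R library. Spry1 had 2, 2 and 1 peaks in control and 3, 2 and 3 in H/R. Its main peak at chr3:37642555-37644599 had the highest fold of any brake, 102, 118 and 55.1 in control and 55.4, 82.6 and 62.2 in H/R. All 8 H/R peaks overlapped control peaks. The 5′UTR region of Spry1 was missing from control C and was divided into more than 1 peak in H/R A and H/R C. Spry4 had 0, 1 and 1 peaks in control and 1, 1 and 2 in H/R. Spred2, which brings neurofibromin to Ras, had 3, 2 and 1 peaks in control and 3, 3 and 4 in H/R, and Spred1 had no peak under its symbol in the lists used here.

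**Figure D2:**
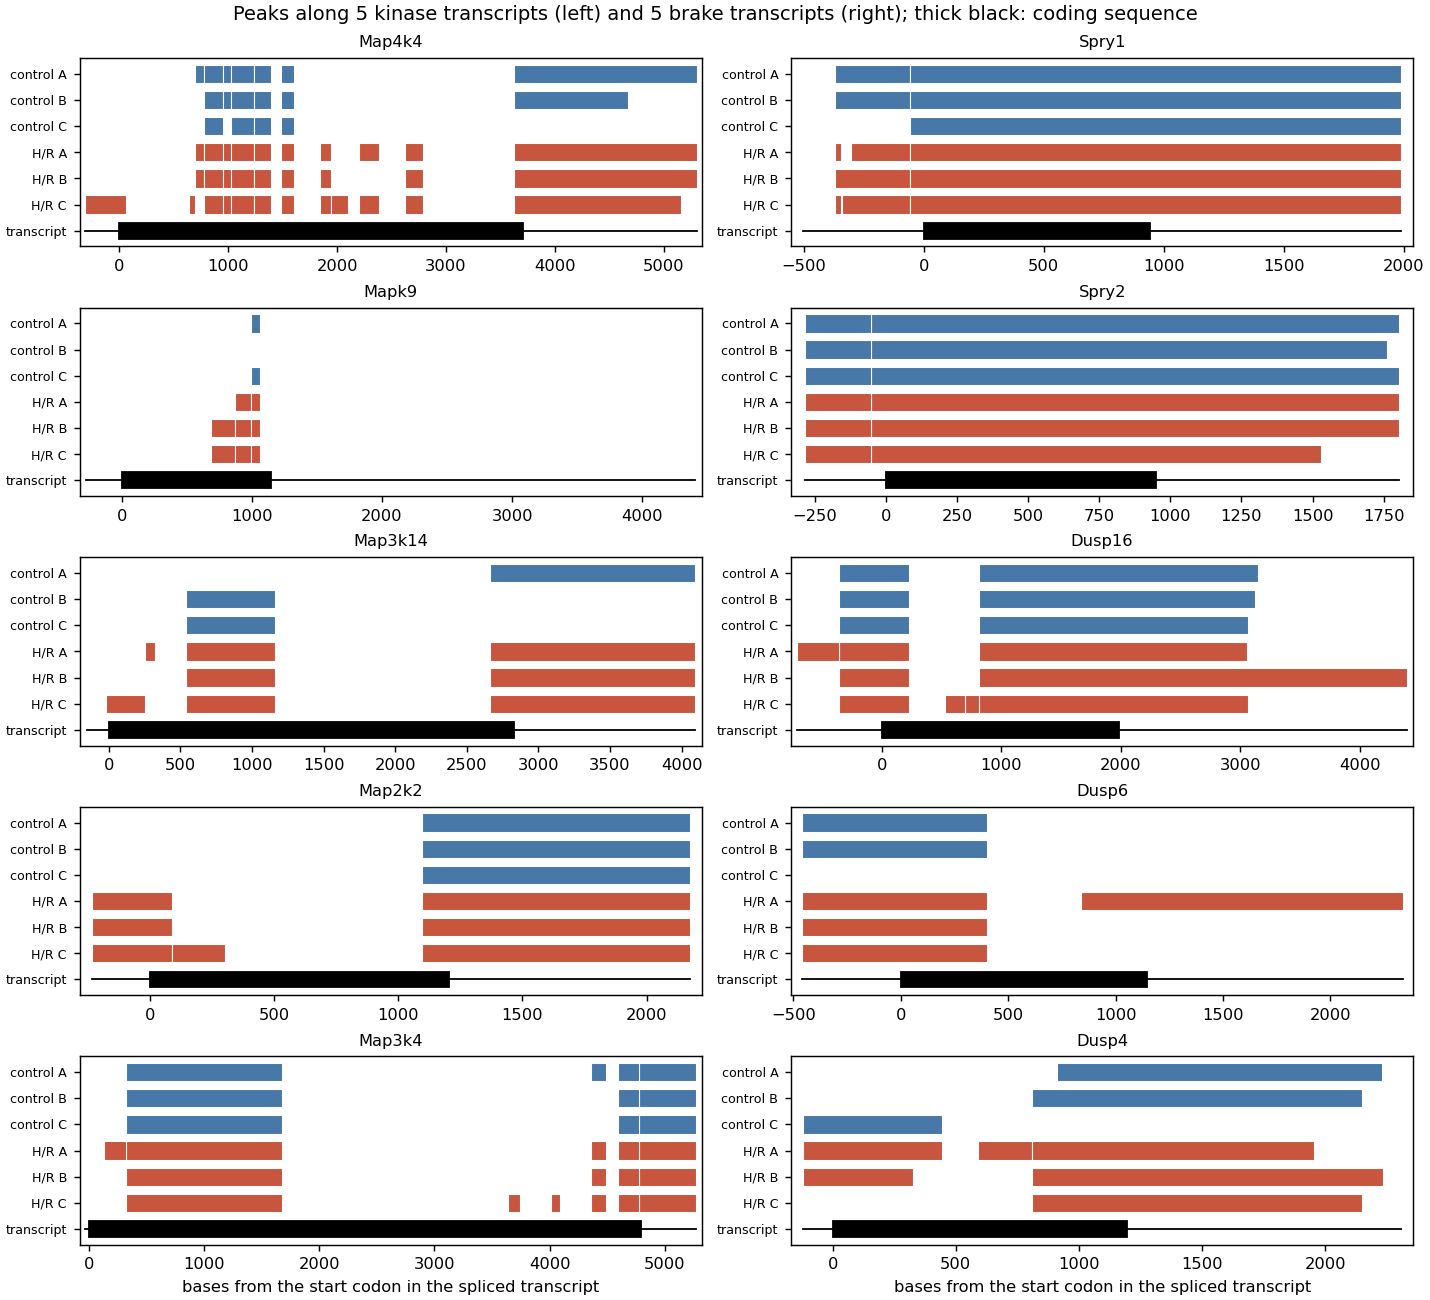
Peaks (coloured bars, blue control, red H/R) of 5 kinases in the left column and 5 brakes in the right column, placed on the spliced transcript, with the horizontal axis in bases from the start codon and the coding sequence as the thick black bar. Of the 166 peaks of these genes, 159 lie on the drawn transcript model. Kinase peaks are mostly separate coding exons, as in Map4k4 and Mapk9. The 3′ peaks of Spry1 and Spry2 run through the coding sequence into the 3′UTR in all 6 libraries.

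Kinases were compared with brakes directly. Control libraries called 72.4%, 55.2% and 44.8% of the 29 kinases and 85.7%, 81.0% and 52.4% of the 21 brakes. H/R libraries called 72.4%, 62.1% and 89.7% of the kinases and 90.5%, 76.2% and 95.2% of the brakes. The share was lower for kinases in all 6 libraries. The kinase share minus the brake share was -15.5 ± 9.32 percentage points in control and -12.6 ± 6.38 in H/R (SD, n = 3), and the difference of 2.96 points was within the spread of the libraries (exact permutation test, p = 0.7). It changed sign without control B (-2.16) and without H/R C (-0.55). The brakes here include 8 atypical Dusp genes, and without these the difference was 4.42 points. Kinases provided 59.7%, 54.7% and 60.5% of the kinase and brake peaks in control and 60%, 63.0% and 64.6% in H/R, means of 58.3 ± 3.15% and 62.5 ± 2.34% (SD, n = 3; exact permutation test, p = 0.2). H/R A lay below control C, so the groups overlapped.

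**Figure D3:**
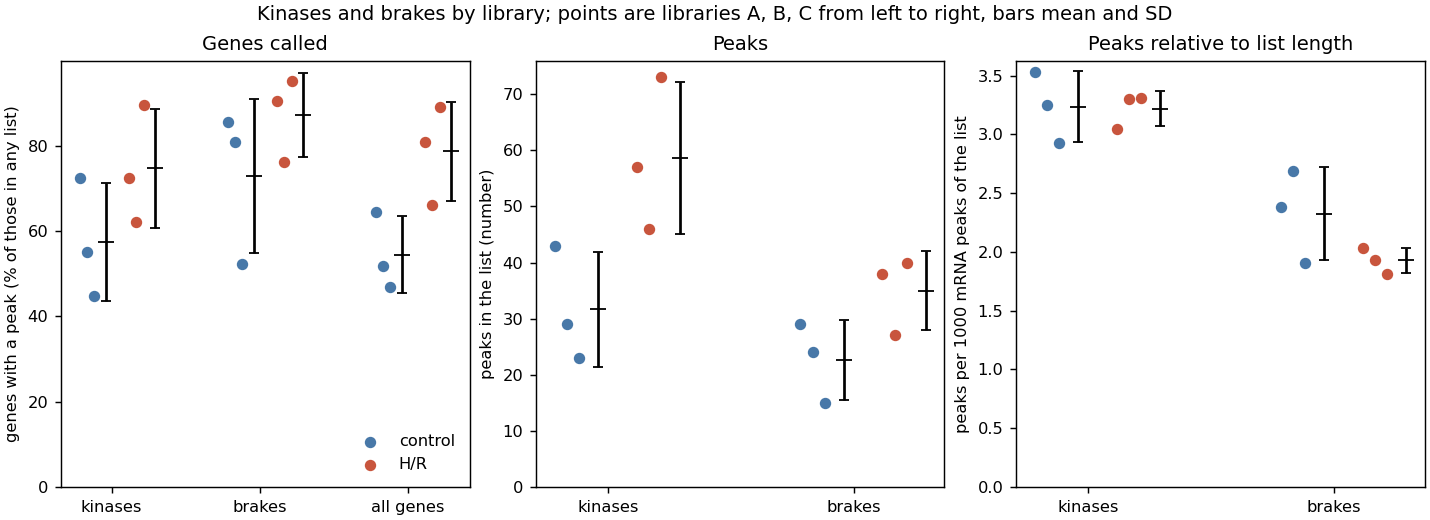
Genes called (left, percent of the 29 kinases, 21 brakes or 10030 genes), peaks (middle, number) and peaks per 1000 mRNA peaks of the list (right) for each library, with blue control and red H/R points and black bars for the mean and SD of 3 libraries. Kinase peaks rise from a mean of 31.7 to 58.7 and brake peaks from 22.7 to 35.0, and relative to list length the kinase means are 3.23 and 3.22 and the brake means 2.33 and 1.93.

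Peaks of kinases rose from 43, 29 and 23 to 57, 46 and 73, without overlap (exact permutation test, p = 0.1, n = 3), and those of brakes from 29, 24 and 15 to 38, 27 and 40, with overlap (exact permutation test, p = 0.2, n = 3). Relative to list length the kinase difference was -0.02 peaks per 1000 (exact permutation test, p = 1) and the brake difference -0.40 (exact permutation test, p = 0.3). For the 10 kinases and 10 brakes found in every list, peaks per gene went from 2.37 ± 0.40 to 4.00 ± 0.75 in kinases and from 1.67 ± 0.31 to 2.33 ± 0.31 in brakes (SD, n = 3). The 3966 such genes of the whole lists went from 2.0 ± 0.27 to 3.04 ± 0.41. Map4k4, which is among the 10 kinases, went from 5.67 to 11. Whether kinases and brakes differed in this gain was not tested. The longest annotated transcript had a median of 3877 bases in the kinases with a peak and 4614 in those without, and of 2872 bases in the brakes with a peak and 1745 in those without. Across the 60 members, mean peak number had a Spearman rho of 0.34 with that length, and across 9192 genes 0.31, as a description over genes that share the same libraries.

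Coding sequence held a larger share of kinase peaks than of brake peaks in every library. Peaks were classed by their centre as 5′UTR, within 100 bases of the start codon, coding sequence, within 100 bases of the stop codon, or 3′UTR, and 12 of the 500 member peaks could not be classed. Both edges of 63.5% of member peaks coincided with exon edges, so a position is known to about an exon. The coding share of kinase peaks was 47.6%, 53.6% and 57.1% in control and 54.4%, 53.3% and 55.6% in H/R, and that of brake peaks 25.0%, 21.7% and 21.4% in control and 29.7%, 23.1% and 35.9% in H/R. Over all genes the coding share was 52.6% to 56.3%, so the kinases lay near it and the brakes below it. Map4k4 alone had 44 coding peaks over the 6 lists. In the transcripts themselves the coding class took a median of 47.8% of the bases in kinases and 33.1% in brakes. The 3′UTR held 31.0%, 21.4% and 19.0% of kinase peaks in control and 22.8%, 20% and 18.1% in H/R, and 39.3%, 39.1% and 28.6% of brake peaks in control and 29.7%, 42.3% and 30.8% in H/R. The stop codon window held 17.9%, 17.4% and 28.6% of brake peaks in control and 16.2%, 11.5% and 10.3% in H/R, beside 5.61% to 6.63% of the peaks of all genes. These control and H/R shares of the brakes did not overlap. The numbers of peaks behind them did, at 5, 4 and 4 in control and 6, 3 and 4 in H/R. Most of these peaks came from Spry1 (6), Dusp14 (6), Spry2 (5) and Dusp16 (5).

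**Figure D4:**
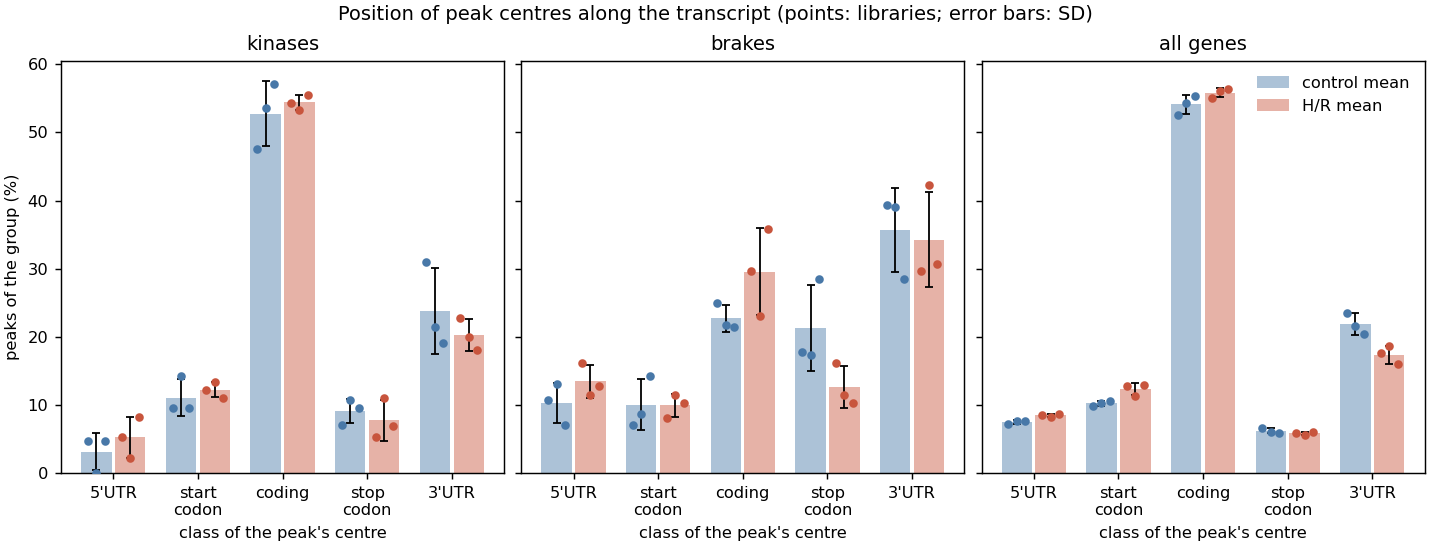
Share of peaks (percent of classed peaks) whose centre lies in each of 5 transcript classes, for kinases, brakes and all genes, with bars for the mean, error bars for the SD and points for the 3 control (blue) and 3 H/R (red) libraries. Coding sequence is the largest class of the kinases in each library, with means of 52.8% and 54.4%, and the 3′UTR has the highest mean of the brakes, 35.7% and 34.3%.

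Over all members, the coding share was 41.1 ± 1.38% in control and 46.2 ± 2.36% in H/R (SD, n = 3), a difference of 5.06 points without overlap (exact permutation test, p = 0.1, 0.25 after Benjamini-Hochberg adjustment over 5 classes). The stop codon share was 12.6 ± 2.37% and 8.78 ± 1.19% (SD, n = 3; exact permutation test, p = 0.1, adjusted 0.25). The 5′UTR, start codon and 3′UTR shares differed by 0.90, -0.26 and -1.90 points, with overlap (exact permutation tests, p = 0.4, 0.9 and 0.7). The coding difference for all genes was 1.72 points. That of the members was 1.07 points with lists of equal length and 1.32 with a p score of at least 100, and it changed sign with a fold of at least 10 (-0.92 points), when the windows around the codons were dropped (-0.20 points) and when each base of a peak was counted in place of its centre (-4.54 points). Counting each base also turned the stop codon difference to 0.24 points. For all genes the 3′UTR share was 21.9 ± 1.61% in control and 17.4 ± 1.33% in H/R (SD, n = 3).

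Regions were formed by merging member peaks that overlapped by at least 1 base across the lists, which gave 158 regions in the 60 genes. Of these, 31 (19.6%) were called in all 6 lists, beside 21.9% of the regions of all genes. In the kinases 11 of 17 such regions were coding, and in the brakes 1 of 11 was, with 4 at the stop codon and 3 in the 3′UTR. The H/R-only regions numbered 6 (3.80%), beside 6.21% of all regions, and no region was control-only (0.059% of all regions). They were 2 coding exons of Map4k4, 1 coding exon each of Map3k8 and Mapk9, the first exon of Map2k2 and the 5′UTR exon of Dusp14. Leaving out control A gave 12, and leaving out H/R B gave 17. The H/R-only share of all genes rose as well, from 4.96% to 10.8% and 11.7% respectively. With lists of equal length the number of H/R-only regions was 1. No share over all regions stands beside these altered counts, so they are not a result about the members.

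**Figure D5:**
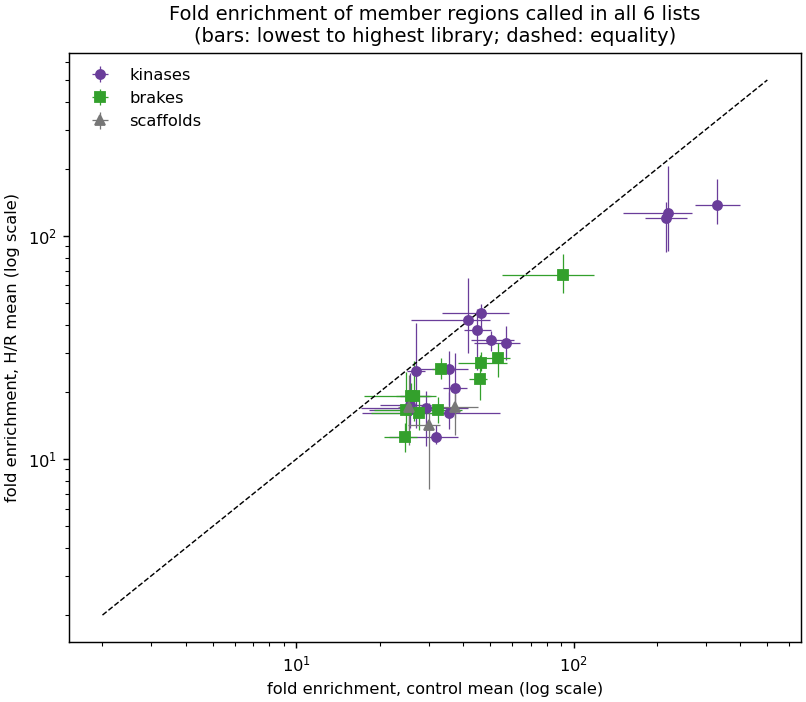
Fold enrichment in H/R (vertical, log scale) against control (horizontal, log scale) for the 31 member regions called in all 6 lists, with points at the mean of 3 libraries, bars from the lowest to the highest library and a dashed line of equality. In 15 regions all 3 H/R values lie below all 3 control values, and no region shows the reverse.

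The fold enrichment of member peaks was lower in H/R. Its median per library was 23.5, 33.9 and 32.9 in control against 11, 16.4 and 11.8 in H/R, with means of 30.1 ± 5.73 and 13 ± 2.96 (SD, n = 3; exact permutation test, p = 0.1). The groups did not overlap, and the median over all genes likewise went from 27.9 ± 6.06 to 11.6 ± 3.36. In regions found by every list, the fold was lower in every H/R library than in every control library for 15 of 31 member regions (48.4%) and higher for none. Over all genes 54.2% were lower and 0.169% higher. Those regions lay in the kinases Map2k2, Map2k7, Map3k1, Map3k4, Map3k10, Map3k11 and Map4k4, in the brakes Dusp3, Dusp14, Dusp16, Spred2 and Spry2 (2 regions), and in Mapk1ip1l and Mapkap1. DRACH matches per 1000 bases were 20.5 ± 0.43 in control and 19.6 ± 0.20 in H/R over member peaks (SD, n = 3; exact permutation test, p = 0.1) and 20.7 ± 0.11 and 20.4 ± 0.16 over all peaks.

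Genes around the cascade were counted in the same way. Of 73 receptor, adaptor, Ras, Raf, Ras-brake, downstream kinase and transcription factor genes listed for comparison, 60 had a peak. Of these 60, 28 (46.7%) were called in every list, beside 39.5% of all genes, and 9 (15%) had more peaks throughout H/R, beside 14.8%. Myc, a transcription factor downstream of ERK, had 0 peaks in every control library against 1, 1 and 3 in H/R. Rasa3, which switches Ras off, had 0 in every control library against 4, 1 and 4 in H/R, and Rps6ka4, a kinase activated by ERK and p38, had 0 and then 1, 1 and 2. These 3 were the H/R-only genes among them, 5% of the 60 beside 4.96% of all genes. Sos1, which loads Ras with GTP, had 4, 4 and 5 peaks in control and 8 in each H/R library. Araf had no peak under its symbol in the lists used here, and Braf had 1 in H/R A.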

How the data were processed

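MeRIP-seq was performed on input and immunoprecipitated RNA of control and H/R cultures. The submitters' processing notes name cutadapt (version 1.9.3), HISAT2 (version 2.0.4) and the mm10 build, and the authors called peaks in each library with MACS (version not given in the sources used here) without pooling replicates and kept the exonic parts. The deposited score is 10 times the -log10 of the p of a peak, the enrichment column, as deposited, is a fold ratio (immunoprecipitate over background), and the deposited false discovery rate was read as percent. The lowest score in the mRNA lists was 50. Peaks depend on depth and background, which the lists do not give. The circRNA and lncRNA lists appear in the closing section alone.

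Members, groups and comparison lists were chosen with earlier results of these data known. Named genes were those called in one group alone, the 5 kinases and 5 brakes (no brake qualified) with the largest non-overlapping difference in peak number, the 3 kinases and 3 brakes with the highest lowest score, and a core cascade, of which not every gene is reported here. Peaks were classed on RefSeq and GENCODE transcript models, and 88.6% used the listed transcript. For each value the 3 libraries of either group entered an exact two-sided permutation test. Alternatives were lists of equal length, fold enrichment of at least 10, a score of at least 100, each library left out, narrower member and brake lists, and other region settings. Python (version 3.11.15), numpy (version 2.4.6), pandas (version 2.3.3) and pysam (version 0.24.0) were used, and the functions were tested on simulated data.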

Additional observations from a re-analysis of the deposited data

Results flagged for a closer look

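Peaks that carry a member's symbol in the lncRNA lists, which the comparisons above do not use, were higher in number in H/R. Control libraries had 3, 4 and 1 of them (A, B, C) against 8, 6 and 11 for H/R, a difference in means of 5.67 without overlap between the groups (two-sided exact permutation test, p = 0.1, the smallest that 3 against 3 libraries allow). They belonged to 11 symbols, led by Map2k2 with 1, 2 and 0 peaks in control and 3, 2 and 3 in H/R, and none of the 33 overlapped a peak of a member in that library's mRNA list. The lncRNA lists themselves held 1594, 1115 and 1047 peaks in control and 2649, 1980 and 3243 in H/R. Per 1000 peaks of the list the members had 1.88, 3.59 and 0.96 in control against 3.02, 3.03 and 3.39 in H/R, and these ranges overlapped (exact permutation test, p = 0.4).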

How the results depend on the processing

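No paired analysis was possible because the letters A, B and C of the lists are tied to no replicate number in the labels. No result passed a threshold of 0.05, which 3 against 3 libraries cannot reach, so stability is a matter of direction and count. With lists of equal length the differences (H/R minus control) reversed for median peak length (18.8), members called (-0.67), member peaks per 1000 (0.25), the start codon share (1.80) and Map3k4 (-0.33). Of the 43 members left in the same lists, 0 had more peaks and 1 had fewer, beside 2.51% and 2.22% of all genes. There was 1 control-only member (1.32% of all genes), with 1 control-only region and 1 H/R-only region. With fold enrichment of at least 10 the reversed values were 0.48 for peaks per 1000, -1.76 for the kinase share of peaks, -2.46 for kinases minus brakes called, 2.61 for the 3′UTR share and -0.92 for the coding share. Of the 53 members left at that fold, 0 had more and 1 had fewer, beside 3.39% and 1.09% of all genes. There was 1 control-only member, beside 38 of 8015 genes, with 1 control-only region and 2 H/R-only regions. With a score of at least 100, kinases minus brakes called gave -0.66, the 3′UTR share 0.89 and the start codon share 1.03. Of the 52 members left at that score, 3 had more and 1 had fewer, beside 15.7% and 0.0908% of all genes. There was 1 H/R-only member (Mapkbp1), beside 526 of 8811 genes, and 1 control-only member (Map3k19), beside 6 of those genes. The regions were 1 control-only and 3 H/R-only. Counting each base reversed the 3′UTR (3.90), coding (-4.54), start codon (0.24) and stop codon (0.24) shares, and dropping the codon windows reversed the coding share (-0.20). Leaving out each library gave 0 to 2 H/R-only members, 0 to 1 control-only members, 0 to 1 members with fewer peaks, 5 to 17 with more, 6 to 17 H/R-only regions, 0 to 1 control-only regions, -2.16 to 6.95 for kinases minus brakes called, -5.03 to 0.99 for the 3′UTR share and -1.42 to 0.95 for the start codon share. The cause was not tested. With each library left out, 15.8% to 32.1% of all genes had more peaks and 0.181% to 0.353% had fewer. Likewise 5.48% to 11.7% of all genes were H/R-only and 0.12% to 0.262% control-only. The region counts under these alternatives have no share over all regions beside them, so they are not a result about the members. Narrower member and brake lists and a stricter merging of regions changed no direction and moved no count by over 1.5 times.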

Other observations

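In the circRNA lists, 5 member symbols appeared as host genes, with 5, 2 and 2 control peaks (A, B, C) against 5 in each H/R library (two-sided exact permutation test, p = 0.4, n = 3). Mapkap1, which encodes a subunit of the kinase complex mTORC2, had 1, 0 and 1 control peaks and 2 in each H/R library, and Dusp16 had 1 in all 6. All 24 of these peaks overlapped a member peak in that library's mRNA list, so circular and linear RNA cannot be told apart there.

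Among the scaffolds, Mapkap1 had 3, 1 and 2 mRNA peaks in control and 4, 3 and 5 in H/R. Mapk8ip1, a JNK scaffold, had none in the control libraries and 2, 0 and 2 in H/R, while Mapk8ip3, another JNK scaffold, had 1 in every control library against 3, 1 and 0 in H/R. Map3k19 had 1 peak in every control library against 1, 0 and 0 in H/R, and its covered length was 2421, 2421 and 2387 bases in control and 494 in H/R A.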
